A study of Mus musculus with 17 samples.

Results

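The circadian clock genes described here are Per1, Per2, Per3, Cry1, Cry2, Nr1d1, Nr1d2, Dbp, Tef and Clock. They were taken by gene name from the deposited expression table, which gave 10 of 38340 genes. Of the 14012 genes with enough reads to be tested, these 10 were all present, so none was lost to the filter on low values. The rule used only names and no measured value.

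The data are RNA sequencing of whole spleen from mice of the strain the labels write as CB57BL/6NCrl, in 17 libraries and 6 groups. SLR10, SLR14, poly(I:C) and pppNS were each given to a group with 3 libraries, a jetPEI vehicle group had 2, and 3 libraries came from untreated mice, called naive. SLRs are short RNA hairpins that bind the RNA sensor RIG-I, and poly(I:C) is a long man-made RNA duplex that several RNA sensors bind. The labels do not explain the abbreviation pppNS. A single injection protocol is attached to every library, naive ones included, in which 25 µg of RNA was packed with in vivo-jetPEI, a polyethylenimine for delivering nucleic acids, and given into a vein. Libraries of a group were taken as separate mice, and no genetic change is named for any of them. Age, sex, the interval from injection to collection, the time of day and the light schedule are not given in the sources used here. Since these genes cycle over the day, a difference in collection time and a difference in treatment cannot be told apart where both could differ between groups.

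In the clock, CLOCK and BMAL1 (the product of Arntl) bind E-boxes and switch on the Per, Cry, Nr1d and Dbp genes. PER and CRY proteins then hold CLOCK and BMAL1 back. The REV-ERB proteins made from Nr1d1 and Nr1d2 repress, and ROR proteins activate, genes with ROR elements, Arntl among them. DBP, TEF and HLF are related factors that activate genes through D-boxes, where NFIL3 represses, and Per genes are among the D-box genes. The loop runs in most tissues, including spleen and its immune cells.

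The letters that these factors are known to bind were searched for in the 250 bases before each RefSeq start site (build GRCm38.p6), on both strands. An entry was found for 9 of the 10 genes, Per2 being the exception. The motifs were the E-box CACGTG, present in 6.02% of 32851 promoters of this length, the E-prime box CACGTT (3.85%), the D-box as TTATGTAA or TTACGTAA (0.931%) and the ROR element core AGGTCA (14%). The CRE TGACGTCA was found in 1.55%. Promoter windows of 4 of the 5 clock genes whose RNA fell after poly(I:C) against vehicle are shown. They run 5′ to 3′ on the strand of the gene, with matches in capitals. The window of Dbp, the other of the 5 genes, held no match and is not shown. A match is a description of the sequence and not a binding site.
Per3: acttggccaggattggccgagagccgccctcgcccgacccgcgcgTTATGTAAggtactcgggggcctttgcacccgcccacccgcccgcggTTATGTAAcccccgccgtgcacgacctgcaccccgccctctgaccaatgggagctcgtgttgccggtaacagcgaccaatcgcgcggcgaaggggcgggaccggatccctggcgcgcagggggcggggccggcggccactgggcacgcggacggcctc
Tef: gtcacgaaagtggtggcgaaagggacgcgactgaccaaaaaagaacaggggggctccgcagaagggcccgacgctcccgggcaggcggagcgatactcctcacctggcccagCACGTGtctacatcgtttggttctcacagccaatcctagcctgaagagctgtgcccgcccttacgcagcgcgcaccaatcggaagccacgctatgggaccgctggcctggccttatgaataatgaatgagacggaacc
Nr1d1: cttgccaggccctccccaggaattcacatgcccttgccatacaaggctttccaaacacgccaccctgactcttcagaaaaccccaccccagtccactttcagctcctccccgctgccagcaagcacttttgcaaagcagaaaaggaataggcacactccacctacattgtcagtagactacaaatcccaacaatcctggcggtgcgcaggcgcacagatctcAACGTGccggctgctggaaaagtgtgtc
Cry2: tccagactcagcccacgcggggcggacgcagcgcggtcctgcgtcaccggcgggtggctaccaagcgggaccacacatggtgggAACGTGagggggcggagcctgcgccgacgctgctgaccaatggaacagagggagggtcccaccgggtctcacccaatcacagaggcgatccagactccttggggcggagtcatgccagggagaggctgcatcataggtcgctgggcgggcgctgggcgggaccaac
The Per3 window (chr4:151044666-151044915, minus strand) held the D-box letters at 2 places, 205 and 158 bases before the start site. The Tef window (chr15:81811164-81811413, plus strand, start site 2, inside an intron of the longer transcript) held an E-box 138 bases before its start. The Nr1d1 window (chr11:98775378-98775627, minus strand) and the Cry2 window (chr2:92434070-92434319, minus strand) each held an E-prime box, read as AACGTG on the gene strand, 28 and 166 bases before the start. The window of Tef start site 1 also held an E-box, 127 bases before it. Of the other genes, Cry1 held an E-box and an E-prime box, and Nr1d2 a ROR core. Per1 held an E-box and a ROR core at start site 1 and no match at site 2. Clock held a ROR core at start site 3 and no match at sites 1 and 2. None of the searched letters lay in the Dbp window.

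Levels are given as CPM, the deposited reads of a gene scaled to a library size that the authors normalised with edgeR, and differences as log2 differences of CPM + 0.5 with their standard error (SE). A gene is said to rise or fall where limma, fitted on all 17 libraries, gave an adjusted p under 0.05 over all genes tested. Libraries held 26.5 M to 42.8 M reads, and 1 read was worth 0.0175 to 0.0431 CPM, so the member levels of 2.54 CPM and more lay far above the value of 3 reads. All 12 interferon-stimulated genes of a list rose with each of the 4 RNAs against vehicle. Ifit1 had a mean of 18.6 CPM with vehicle and 578 to 1664 CPM in the 4 RNA groups, and Isg15 had 21.5 CPM and 710 to 1331 CPM. Spleen markers of B cells, T cells, red pulp macrophages and stroma were found in every library, with no listed gene at 0. Some libraries stood apart: the summed level of 12 erythroid genes reached 73584 CPM for pppNS replicate 3, 31912 CPM for SLR14 replicate 2, and 39182 and 20371 CPM for poly(I:C) replicates 2 and 3, where the other 13 libraries had 3026 to 12761 CPM. The library pppNS replicate 3 was the lowest of its group for 10 of the 10 clock genes, where 46.3% of all genes tested had their lowest value in that library. Poly(I:C) replicate 2 and SLR14 replicate 2 were each lowest for 7 of 10, against 39% and 40.3% of all genes. The part of erythroid RNA in the member values was not tested. In whole spleen, fewer cells that express a gene and less RNA per cell cannot be told apart.

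**Figure D1:**
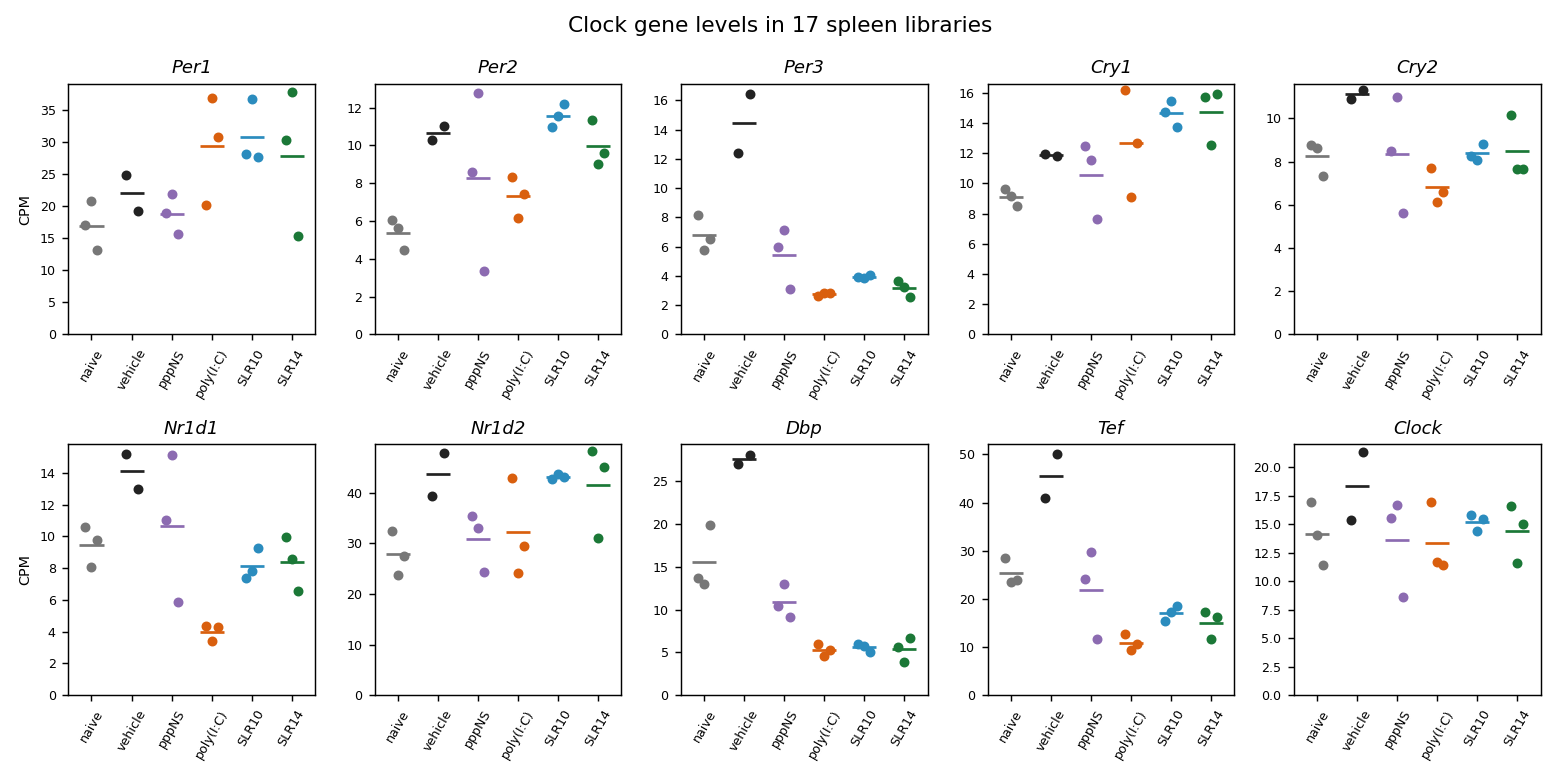
Level of each clock gene in CPM (linear axes from 0) in the 17 libraries by group, with lines for group means. Dbp, Tef and Per3 show the vehicle libraries highest and every library given SLR10, SLR14 or poly(I:C) below the vehicle and naive ones; for Tef and Per3, pppNS replicate 3 (11.6 and 3.13 CPM) lies among them.

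The 10 genes did not have equal levels to begin with. Per kilobase of exon, naive spleen had the highest levels for Dbp (5.20 CPM per kb) and Nr1d2 (5.15), whose libraries overlapped. Tef (3.22), Nr1d1 (3.09), Per1 (3.02) and Cry1 (2.72) formed a middle step, in which each gene overlapped with its neighbour in the order. Cry2 (1.30), Clock (1.03), Per2 (0.918) and Per3 (0.708) formed the lowest step, again with overlap between neighbours, and no library of a lower step reached the step above it. After poly(I:C) the order was another. Nr1d2 (5.95 CPM per kb), Per1 (5.22) and Cry1 (3.79) came first, Dbp followed at 1.76, and Per3 was last at 0.288 with no overlap with Clock (0.974), the gene above it.

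Among the D-box activators, Dbp had the lowest p of all members against vehicle. Dbp (chr7:45705088-45710203) encodes a factor whose RNA is one of the strongest cycling outputs of the clock. It had 27.1 and 28.1 CPM in the vehicle libraries and 13.7, 13.0 and 19.9 CPM in the naive ones. SLR10 libraries had 5.98, 5.77 and 5.04 CPM. SLR14 libraries had 5.59, 3.84 and 6.72 CPM, and poly(I:C) libraries 5.96, 4.58 and 5.30 CPM. All 9 libraries of these 3 agents lay below all 5 control libraries, and pppNS lay between, with 10.4, 12.9 and 9.10 CPM. Against vehicle Dbp fell 4.62-fold after SLR10 (95% interval 3.26 to 6.54, limma adjusted p = 5.76e-06) and 4.88-fold after SLR14 (3.44 to 6.91, adjusted p = 4.20e-06). It fell 4.88-fold after poly(I:C) (3.45 to 6.91, adjusted p = 4.84e-06) and 2.50-fold after pppNS (1.77 to 3.54, adjusted p = 0.00458). The pppNS call was lost without vehicle replicate 1 (log2 difference -1.35, adjusted p = 0.0549) or 2 (-1.30, adjusted p = 0.074). Against naive, where levels were lower than with vehicle, Dbp fell by 1.38 after SLR10, by 1.46 after SLR14 and by 1.46 after poly(I:C) on the log2 scale (adjusted p = 9.02e-05, 5.64e-05 and 6.26e-05). With pppNS its difference from naive was -0.49 (adjusted p = 0.163), although its 3 libraries lay below the naive ones. Exons of Dbp share 539 bases, 18% of its exonic length, with Sphk2 on the other strand, and the strand setting of the counting is not given. Sphk2 (chosen for this overlap after values were seen) had 18.4 CPM with vehicle and 16.0 to 20.0 CPM in the RNA groups, with no call against vehicle.

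Tef (chr15:81802421-81826863), another D-box activator, followed a like order. It had 41.0 and 50.05 CPM with vehicle and 28.4, 23.5 and 24.0 CPM in naive spleen. SLR10 libraries had 15.4, 17.3 and 18.5 CPM, SLR14 libraries 17.3, 11.6 and 16.2 CPM, and poly(I:C) libraries 12.7, 9.36 and 10.5 CPM. These 9 libraries again lay below all controls, while pppNS libraries, with 24.1, 29.8 and 11.6 CPM, reached into the naive range. Tef fell against vehicle by 1.38 ± 0.30 (SE) after SLR10 (adjusted p = 0.00216), by 1.58 after SLR14 (adjusted p = 0.000818) and by 2.02 after poly(I:C) (adjusted p = 0.000126) on the log2 scale. With pppNS it fell by 1.14 (adjusted p = 0.0492), and this call was lost without pppNS replicate 3 (-0.75, adjusted p = 0.0583) and without vehicle replicate 1 (-1.28, adjusted p = 0.177) or 2 (-0.99, adjusted p = 0.397). The pppNS call of Tef was kept in 7 of 17 alternative settings. Against naive Tef fell with SLR14 (-0.75, adjusted p = 0.0339) and poly(I:C) (-1.19, adjusted p = 0.00239), and with SLR10 the difference was -0.55 (adjusted p = 0.106).

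The third activator of that family, Hlf, and the repressor Nfil3 are outside the 10 genes and act on D-boxes in opposite ways. Hlf had 3.87 and 4.17 CPM with vehicle, 0.98 to 1.43 CPM in naive spleen, and 0.117 to 0.396 CPM in the 9 SLR10, SLR14 and poly(I:C) libraries. Its differences from vehicle were -2.64, -2.68 and -2.51 with these agents and -1.42 with pppNS on the log2 scale, where the added 0.5 CPM understates the change. None of the 9 libraries reached the 1 CPM of the filter, which Hlf passed through libraries of the other groups. The calls of Hlf against vehicle are therefore not taken as support for a fall. Nfil3 had 2.29 and 1.83 CPM with vehicle and 1.69 to 3.17 CPM in naive spleen. In the 9 SLR10, SLR14 and poly(I:C) libraries it had 13.5 to 26.8 CPM, with no overlap. It rose by 2.75, 2.71 and 2.93 against vehicle (adjusted p = 6.98e-06, 7.86e-06 and 4.68e-06). With pppNS it rose by 1.13 (adjusted p = 0.0488), a call lost without pppNS replicate 1 or 3 or either vehicle library (0.96 to 1.26).

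**Figure D2:**
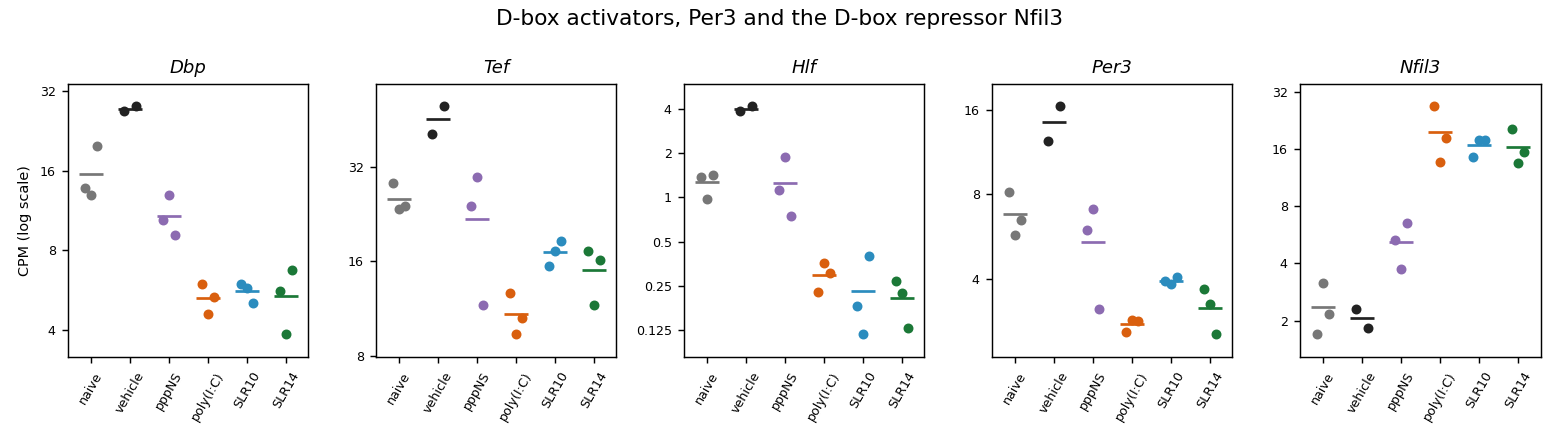
Level of Dbp, Tef, Hlf, Per3 and Nfil3 in CPM (log axis) in the 17 libraries by group. Nfil3 is at 13.5 CPM or more in every SLR10, SLR14 and poly(I:C) library, where Dbp is at 6.72 CPM or less.

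The 3 Per genes, which encode the repressors of CLOCK and BMAL1, gave different calls. Per3 (chr4:151003652-151044665), whose promoter window holds the 2 D-boxes shown above, had 12.4 and 16.4 CPM with vehicle and 8.15, 5.76 and 6.49 CPM in naive spleen. SLR10 libraries had 3.92, 3.84 and 4.07 CPM, SLR14 libraries 3.67, 3.27 and 2.54 CPM, and poly(I:C) libraries 2.60, 2.86 and 2.84 CPM. All 9 lay below every control library. The pppNS libraries had 5.97, 7.11 and 3.13 CPM, below vehicle and overlapping naive. Per3 fell against vehicle 3.33-fold after SLR10 (2.24 to 4.94, adjusted p = 0.000137) and 4.07-fold after SLR14 (2.75 to 6.04, adjusted p = 3.66e-05). The fall was 4.53-fold after poly(I:C) (3.05 to 6.72, adjusted p = 2.15e-05) and 2.62-fold after pppNS (1.77 to 3.90, adjusted p = 0.00755). The pppNS call was lost without vehicle replicate 2 (-1.20, adjusted p = 0.154). Against naive it fell by 0.70, 0.99 and 1.15 on the log2 scale with SLR10, SLR14 and poly(I:C) (adjusted p = 0.0241, 0.00315 and 0.00121).

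Per1 (chr11:69095217-69109960) is also an early gene that hormones and other signals induce directly. It had 25.0 and 19.2 CPM with vehicle and 17.1, 20.8 and 13.1 CPM in naive spleen. SLR10 libraries had 28.1, 36.7 and 27.7 CPM, poly(I:C) libraries 20.3, 37.0 and 30.8 CPM, and SLR14 libraries 30.4, 37.9 and 15.3 CPM. The pppNS libraries had 19.0, 22.0 and 15.7 CPM. SLR10 libraries were above all controls, while SLR14 and poly(I:C) libraries spread widely and overlapped them. No agent gave a call against vehicle (0.47 for SLR10, 0.25 for SLR14, 0.37 for poly(I:C) and -0.22 for pppNS, adjusted p from 0.307 to 0.677). Against naive Per1 rose with SLR10 (0.85, adjusted p = 0.0311), and its differences with poly(I:C) (0.75, adjusted p = 0.0565) and SLR14 (0.63, adjusted p = 0.106) did not pass.

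Per1 is one of the genes that glucocorticoids induce, so a list of other such genes was set beside it. Of 13 tested against vehicle, 7 rose and 1 fell after SLR10 (39.4% of all genes called), 5 rose and 1 fell after SLR14 (38.7%), 6 rose and 2 fell after poly(I:C) (35.9%), and 3 rose after pppNS (4.3%). The median differences of the list were 0.96, 0.51, 0.28 and 0.25, beside -0.01, 0.04, 0.07 and 0.01 over all genes. Fkbp5, a chaperone of the glucocorticoid receptor, had 43.3 and 38.1 CPM with vehicle and 79.4, 84.8 and 74.4 CPM with SLR10, a rise of 0.96 (adjusted p = 0.0171). With SLR14 it had 76.1, 77.1 and 50.5 CPM (0.71, adjusted p = 0.0697). Its differences with poly(I:C) (0.28) and pppNS (0.25) were not called. Tsc22d3, another classic target, had no call against vehicle, with differences from -0.04 to 0.33. Zbtb16 (-0.43 to 0.97) and Klf9 (-1.06 to 0.08) had no call against vehicle either. Against naive, Zbtb16 rose with SLR10 (2.08) and SLR14 (1.425), from a naive mean of 0.517 CPM. Tsc22d3 and Klf9 had no call against naive with SLR10, SLR14 or poly(I:C). Of the 13 genes against naive, 8 rose after SLR10 (49.3% of all genes called). After SLR14 (47.5%) and after poly(I:C) (46%) 8 rose and 1 fell, and after pppNS 5 rose and 1 fell (10.9%). The part of glucocorticoids in the Per1 values was not tested.

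Per2 (chr1:91415982-91459324) had 10.3 and 11.0 CPM with vehicle and 6.05, 5.62 and 4.45 CPM in naive spleen. SLR10 libraries had 11.0, 11.6 and 12.2 CPM, and SLR14 libraries 11.3, 9.01 and 9.61 CPM. Poly(I:C) libraries had 8.35, 6.17 and 7.42 CPM, and pppNS libraries 8.61, 12.8 and 3.34 CPM. The Per2 calls depended on the control. Against vehicle its differences were 0.12 for SLR10, -0.09 for SLR14, and -0.52 for both poly(I:C) and pppNS, none called. Against naive it rose 2.07-fold with SLR10 (1.29 to 3.33, adjusted p = 0.0142) and 1.79-fold with SLR14 (1.11 to 2.88, adjusted p = 0.0438), and the difference was 0.41 with both poly(I:C) and pppNS.

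The Cry genes, which encode the partner repressors of the PER proteins, moved little. Cry1 (chr10:85131700-85185064) had 12.0 and 11.8 CPM with vehicle, 9.60, 9.18 and 8.48 CPM in naive spleen, 14.7, 15.5 and 13.8 CPM with SLR10, and 15.7, 12.5 and 15.9 CPM with SLR14. Its poly(I:C) libraries had 16.2, 9.13 and 12.7 CPM, and pppNS libraries 12.5, 11.6 and 7.61 CPM. The SLR libraries all lay above the controls, but the difference from vehicle was 0.29 with each SLR (adjusted p = 0.360 and 0.366). Against naive Cry1 rose 1.58-fold with SLR10 and 1.58-fold with SLR14 (adjusted p = 0.0155 and 0.0163).

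Cry2 (chr2:92403646-92434043) had 10.9 and 11.3 CPM with vehicle, 8.74, 8.64 and 7.34 CPM in naive spleen and 7.71, 6.14 and 6.61 CPM with poly(I:C). Its SLR10 libraries had 8.25, 8.07 and 8.82 CPM, its SLR14 libraries 10.1, 7.64 and 7.67 CPM, and its pppNS libraries 8.47, 11.0 and 5.62 CPM. With poly(I:C) it fell 1.59-fold against vehicle (1.14 to 2.22, adjusted p = 0.0295), the smallest called difference against vehicle among the 10 genes. That call was lost without poly(I:C) replicate 2 (-0.60, adjusted p = 0.0818) or 3 (-0.65, adjusted p = 0.069) and without vehicle replicate 1 (-0.70, adjusted p = 0.111) or 2 (-0.64, adjusted p = 0.143). Against naive no agent gave a Cry2 call.

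The 2 REV-ERB genes differed from each other. Nr1d1 (chr11:98767932-98775333) had 15.2 and 13.0 CPM with vehicle and 10.6, 8.05 and 9.81 CPM in naive spleen. Poly(I:C) libraries had 4.35, 3.41 and 4.27 CPM, below every other library of the study. SLR10 libraries had 7.41, 7.81 and 9.25 CPM, SLR14 libraries 9.99, 8.56 and 6.55 CPM, and pppNS libraries 11.1, 15.1 and 5.87 CPM. Both SLR groups lay below vehicle and overlapped naive. Nr1d1 fell 3.25-fold with poly(I:C) against vehicle (2.09 to 5.04, adjusted p = 0.000454) and 2.21-fold against naive (1.49 to 3.28, adjusted p = 0.0027). With the SLRs its differences from vehicle were -0.76 (adjusted p = 0.0571) and -0.73 (adjusted p = 0.065), and from naive -0.20 and -0.18. Exons of Nr1d1 share 263 bases, 8.55% of its exonic length, with Thra on the other strand. Thra (chosen for this overlap after values were seen) fell with SLR10 (-1.94, adjusted p = 0.00419) and SLR14 (-1.83, adjusted p = 0.00636) against vehicle, and had 3.73 CPM with poly(I:C) against 1.84 and 2.29 CPM with the SLRs. Against vehicle, the differences of Thra and Nr1d1 with the SLRs were both negative. Between the SLRs and poly(I:C), their group means were in opposite order. The part of Thra reads in the Nr1d1 values was not tested.

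Nr1d2 (chr14:18204054-18239127) had 39.4 and 47.9 CPM with vehicle and 32.4, 23.8 and 27.4 CPM in naive spleen. SLR10 libraries had 42.7, 43.6 and 43.2 CPM, SLR14 libraries 48.3, 31.0 and 45.2 CPM, poly(I:C) libraries 42.8, 24.2 and 29.5 CPM, and pppNS libraries 35.4, 33.1 and 24.3 CPM. Its differences from vehicle, -0.01 and -0.09 with the SLRs, -0.47 with poly(I:C) and -0.50 with pppNS, were not called. Against naive it rose with SLR10 (0.63, adjusted p = 0.0288), and with SLR14 the difference was 0.55 (adjusted p = 0.0543).

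Of the activators of the loop, Clock (chr5:76209868-76304792) had 15.4 and 21.4 CPM with vehicle, 16.96, 14.0 and 11.4 CPM in naive spleen, and 8.61 to 16.96 CPM in the 12 RNA-treated libraries. All groups overlapped. Its differences from vehicle were -0.25 (SLR10), -0.34 (SLR14), -0.45 (poly(I:C)) and -0.46 (pppNS) (adjusted p from 0.230 to 0.535), and with 2 vehicle libraries the intervals ran from -1.05 to 0.35, so that a decrease of that size could not be told from none. Arntl, whose product pairs with CLOCK, had 11.6 and 11.8 CPM with vehicle and 6.92 to 10.9 CPM in the 9 SLR10, SLR14 and poly(I:C) libraries, with differences of -0.28, -0.34 and -0.44 that were not called. Npas2, which can replace CLOCK, was near the lower limit of the test, at 0.237 and 0.218 CPM with vehicle and 0.53 to 0.91 CPM in naive spleen. With SLR10 and SLR14 it had 0.99 to 1.28 CPM, with differences from vehicle of 1.14 and 1.15. No vehicle or naive library reached the 1 CPM that the filter asked for in 2 libraries. The calls of Npas2 against vehicle are not taken as support for a rise, since RNA-treated libraries let it pass the filter. Against naive its differences were 0.34 and 0.35, not called.

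Counted together against vehicle, 3 of 10 fell and none rose with SLR10, where 39.4% of all genes tested were called and 19.2% fell. With SLR14 3 of 10 fell (38.7% called, 19.4% lower), and the 3 genes were Dbp, Tef and Per3 for both. With poly(I:C) 5 of 10 fell, Nr1d1 and Cry2 being added (35.9% called, 17.3% lower). With pppNS the 3 that fell were again Dbp, Tef and Per3, where 4.3% of all genes were called and 1.35% fell. The median difference of the 10 genes was -0.32 for SLR10 and -0.36 for SLR14, beside -0.01 and 0.04 over all genes, and -0.60 for poly(I:C) and -0.49 for pppNS, beside 0.07 and 0.01. The libraries lay below vehicle without overlap for 5 of the 10 genes after SLR10 (40.6% of all genes), 5 after SLR14 (32.8%), 6 after poly(I:C) (30.4%) and 4 after pppNS (19.9%). The share of members called with the SLRs was thus not above that of the whole table. The 4 comparisons share the same 2 vehicle libraries. The pppNS count fell to 0 when only the pppNS and vehicle libraries were fitted, where 0 of all genes tested were called, and was between 0 and 3 when single libraries were left out. With only the SLR10 and vehicle libraries in the fit the SLR10 count rose to 7, where 70.7% of all genes were called, so that this share of the members was near that of the whole table.

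**Figure D3:**
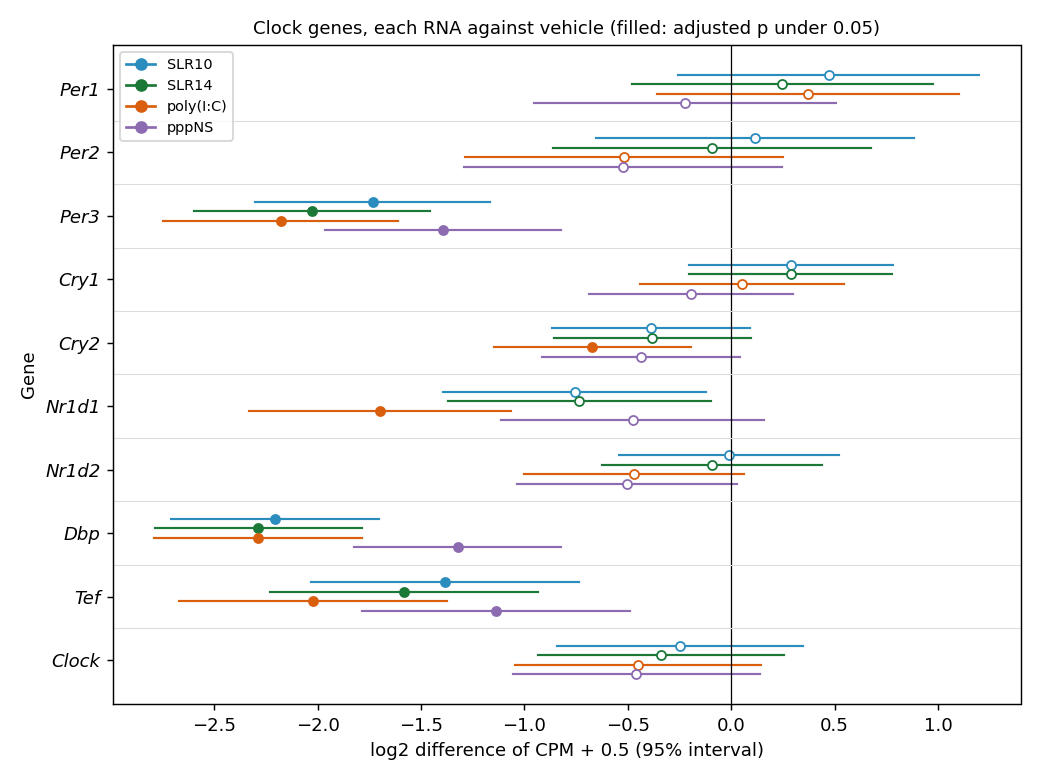
Log2 difference from vehicle with its 95% interval for each clock gene and agent, filled where the adjusted p was under 0.05. Dbp, Tef and Per3 are filled for all 4 agents, and of the other genes Nr1d1 and Cry2 are filled for poly(I:C).

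Vehicle and naive spleen were compared next, since the choice of control decided several calls. None of the 10 genes was called by limma, and 7 genes (0.05%) of all those tested were. At an unadjusted p under 0.05 there were 5 of the 10 genes and 1264 genes in all. EdgeR called 0 of the 10 and 1 of all genes. DESeq2 called 99 of all genes and 1 of the 10, Per3, which was 1.11 higher on the log2 scale (adjusted p = 0.0222). All 10 differences were positive, with a median of 0.60 beside -0.01 over all genes. For 8 genes the vehicle libraries lay above all naive ones (Per1 and Clock were the exceptions), and 24.9% of all genes were higher without overlap. Other gene lists moved beside this shift, with none of their genes called. Medians were -1.12 for 12 erythroid and -0.62 for 10 neutrophil genes. They were 0.44 for 10 stromal and endothelial, 0.49 for 12 interferon-stimulated and 0.33 for 13 glucocorticoid-induced genes. B cell, T cell and red pulp macrophage lists had medians of -0.11, -0.03 and -0.17. The part of these lists in the member values was not tested. The estimates of the 10 clock genes were 1.03 for Per3, 0.93 for Per2, 0.83 for Tef, 0.83 for Dbp, 0.64 for Nr1d2 and 0.55 for Nr1d1, and from 0.37 to 0.41 for the rest. Hlf had the largest such difference among the other clock genes (1.37, adjusted p = 0.0906). Against naive, 4 of the 10 rose and 2 fell after SLR10, where 49.3% of all genes were called, 25.7% higher and 23.6% lower. After SLR14 2 rose and 3 fell (47.5% called, 24.7% higher and 22.8% lower), and after poly(I:C) 4 fell (46% called, 21.1% lower). With pppNS none was called against naive (10.9% of all genes), and 1, Dbp, had an unadjusted p under 0.05. Dbp and Per3 fell against both controls with SLR10, SLR14 and poly(I:C), while the rises of Per2, Cry1, Per1 and Nr1d2 were called against naive and not against vehicle.

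**Figure D4:**
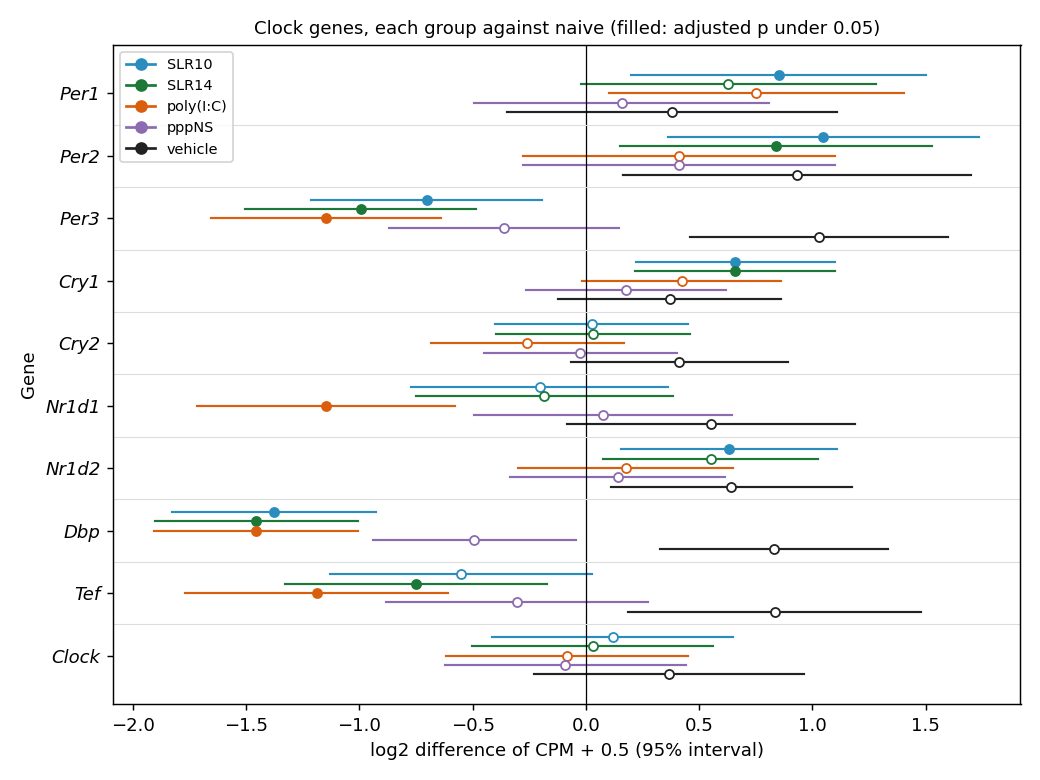
Log2 difference from naive spleen with its 95% interval for each clock gene, for the vehicle and the 4 RNAs, filled where the adjusted p was under 0.05. Vehicle is above 0 for every gene with no filled point, and Dbp and Per3 are filled below 0 for SLR10, SLR14 and poly(I:C).

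The agents were also compared with each other. SLR14 and SLR10 differed in none of the 10 genes, and in none of the 14012 (0%), by limma. EdgeR and DESeq2 called none of the 10, and 0 and 1 of all genes. At an unadjusted p under 0.05 there were 0 of the 10 and 89 of all genes. The differences, SLR14 minus SLR10, ran from -0.29 for Per3 to 0.02 for Nr1d1. The interval for Dbp was -0.53 to 0.37, for Tef -0.78 to 0.38, for Nr1d1 -0.55 to 0.59 and for Per1 -0.88 to 0.43, so differences within these bounds remained possible. These intervals are not adjusted for the number of genes tested and are not limits of detection. Per3 libraries of SLR14 lay below those of SLR10 without overlap (interval -0.80 to 0.22), as 4.51% of all genes did.

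Both SLRs together were set against poly(I:C), where 3.51% of all genes were called and 1.66% were higher. Nr1d1 was the single member called: it was 1.94-fold higher with the SLRs (1.38 to 2.72, adjusted p = 0.0366), and its 6 SLR libraries, at 6.55 to 9.99 CPM, lay above the 3 of poly(I:C). The call was lost without any 1 of SLR10 replicates 1, 2 and 3, SLR14 replicate 1 and poly(I:C) replicates 2 and 3, with values of 0.85 to 1.00 and adjusted p of 0.0642 to 0.185. Per2 was also higher in all 6 SLR libraries, with a difference of 0.53 (adjusted p = 0.313), and 7.63% of all genes were so. Dbp differed by 0.04 (interval -0.35 to 0.43) and Per3 by 0.30 (-0.14 to 0.74), neither called.

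The pppNS group was compared with the other RNAs as well. Against both SLRs together (44.9% of all genes called), Dbp was 1.90-fold lower with the SLRs (1.45 to 2.48, adjusted p = 0.00109) and Cry1 was higher by 0.48 on the log2 scale (0.10 to 0.86, adjusted p = 0.0396). The Cry1 difference was 0.27 without pppNS replicate 3 (adjusted p = 0.196), and its call was also lost without any 1 of the SLR10 libraries or SLR14 replicates 1 and 3 (0.45 to 0.50). Poly(I:C) against pppNS (26.8% called, 11.4% lower) gave 4 lower genes: Nr1d1 (-1.22, adjusted p = 0.00358), Dbp (-0.96, adjusted p = 0.00365), Tef (-0.89, adjusted p = 0.0258) and Per3 (-0.79, adjusted p = 0.0245). Nr1d1 and Dbp kept their calls without any single library, but with only the poly(I:C) and pppNS libraries in the fit none of the 4 was called, where 5.19% of all genes were. Per3 lost it without poly(I:C) replicate 1 or 3 or pppNS replicate 1 or 2 (-0.57 to -0.80), and Tef without poly(I:C) replicate 2 or 3 or pppNS replicate 1 or 2 (-0.62 to -0.87).

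Outside the 10 genes, 24 other genes of the clock pathway were tested. Against vehicle 9 rose and 5 fell after SLR10 (39.4% of all genes called), 9 rose and 3 fell after SLR14 (38.7%), 6 rose and 3 fell after poly(I:C) (35.9%), and 2 rose and 1 fell after pppNS (4.3%). The rises after SLR10 and SLR14 include Npas2, which entered the test through RNA-treated libraries. The falls include Hlf, which passed the filter through libraries of groups other than SLR10, SLR14 and poly(I:C). The medians of the list were 0.14, 0.15, 0.27 and 0.02, beside the same medians over all genes as above, and the poly(I:C) count was near the share of the whole table. Ciart, a repressor of CLOCK and BMAL1, had 2.90 and 3.00 CPM with vehicle, 1.33 to 1.68 CPM in naive spleen, 6.60, 8.24 and 8.64 CPM with SLR10, 7.42, 4.19 and 5.73 CPM with SLR14, and 2.88, 2.14 and 3.46 CPM with poly(I:C). It rose with SLR10 (1.26, adjusted p = 0.00158) and with SLR14 (0.83, adjusted p = 0.0216), the latter lost without SLR14 replicate 1 (0.65) or vehicle replicate 1 (0.81) or 2 (0.85). Both SLRs exceeded poly(I:C) by 1.12 (adjusted p = 0.0089), a call lost without poly(I:C) replicate 2 (0.96, adjusted p = 0.0658). Like Nr1d1, Ciart was therefore higher with the SLRs than with poly(I:C).

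The E-box repressors Bhlhe40 and Bhlhe41 had calls in opposite directions with SLR10. Bhlhe41 had 12.3 and 9.02 CPM with vehicle, 3.02 to 4.10 CPM with the SLRs and 1.17 to 2.31 CPM with poly(I:C). It fell by 1.35, 1.47 and 2.34 with SLR10, SLR14 and poly(I:C) (adjusted p = 0.0011, 0.000582 and 1.32e-05). Bhlhe40 had 36.7 and 35.3 CPM with vehicle and rose with SLR10 (0.77, adjusted p = 0.0279), a call lost without SLR10 replicate 2 or 3 or either vehicle library (0.74 to 0.80). The Bhlhe40 difference with SLR14 was 0.63 (adjusted p = 0.0656). Its poly(I:C) libraries overlapped vehicle, with 12.18, 7.485 and 10.02 beside 7.804 and 7.501 CPM per kb of exon. Rora, an activator at ROR elements, had 5.95 and 7.84 CPM with vehicle and 3.61 to 7.68 CPM in the 9 SLR10, SLR14 and poly(I:C) libraries, and no comparison called it.

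**Figure D5:**
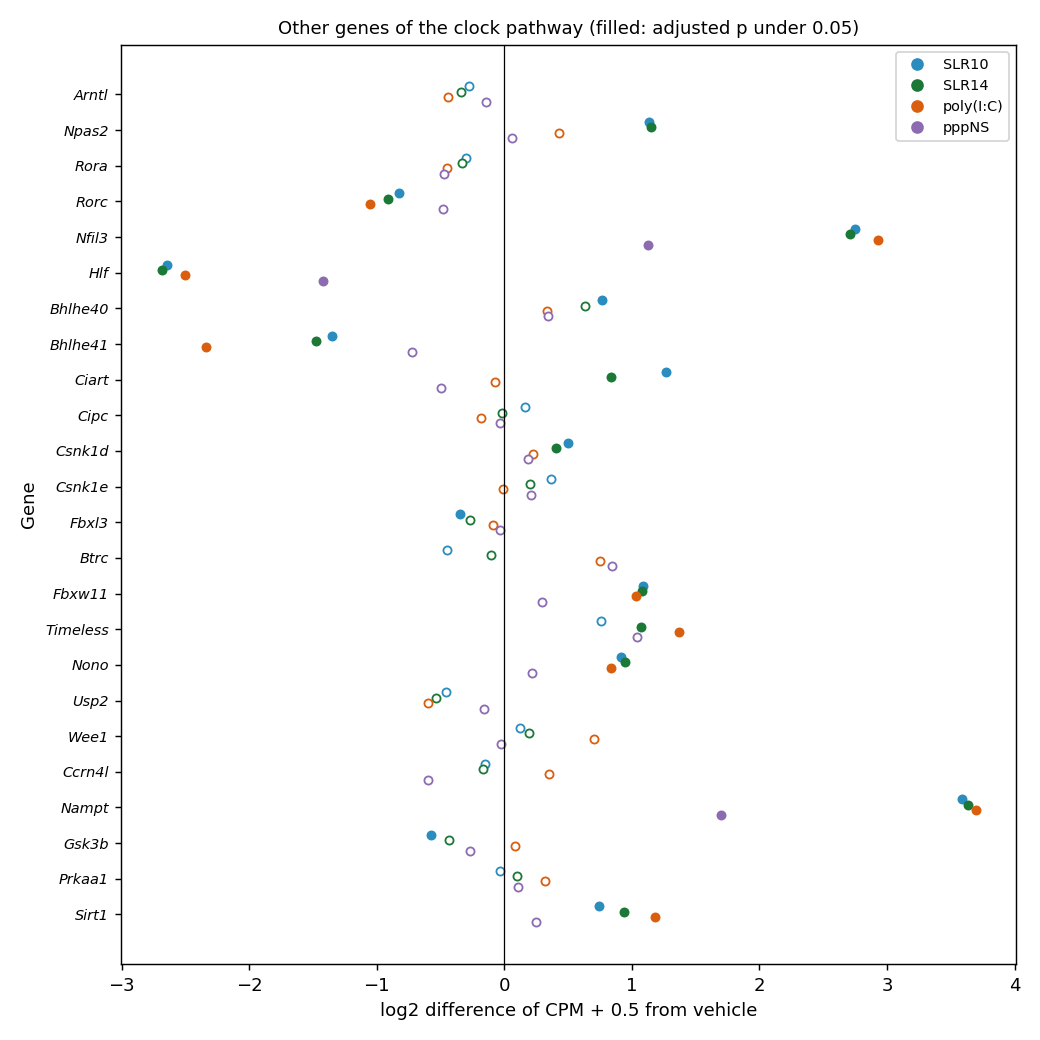
Log2 difference from vehicle for 24 other clock pathway genes and the 4 agents, filled where the adjusted p was under 0.05. Hlf and Bhlhe41 are the lowest and Nampt and Nfil3 the highest with SLR10, SLR14 and poly(I:C).

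Marker levels of several cell types moved beside the member values. From vehicle to the SLR10, SLR14 and poly(I:C) libraries, the summed level of 10 B cell markers went from 2777 to 2800 CPM to 1319 to 2175 CPM, and that of 10 T cell markers from 475 to 554 CPM to 223 to 374 CPM. Sums of 9 red pulp macrophage markers went from 1376 to 1595 CPM to 944 to 1239 CPM, and those of 10 stromal and endothelial markers from 489 to 519 CPM to 325 to 436 CPM. Neutrophil markers (10 genes) went from 155 to 163 CPM to 449 to 1330 CPM. None of these 5 sums overlapped with vehicle in any of the 9 libraries. Single markers did not all move with the sums. Against vehicle with SLR10, 4 of 10 B cell, 5 of 10 T cell, 4 of 9 macrophage and 4 of 10 stromal and endothelial markers fell. There 39.4% of all genes were called and 19.2% fell. In the same comparison 4 of 10 neutrophil and 1 of 10 stromal and endothelial markers rose, and 2 B cell markers lay above vehicle without overlap.

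In naive spleen, where Dbp, Tef and Per3 were below vehicle, neutrophil sums (249 to 294 CPM), erythroid sums (4311 to 12761 CPM, beside 3085 to 3829 CPM with vehicle) and B cell sums (2875 to 3223 CPM) lay above vehicle without overlap. T cell sums (467 to 633 CPM), red pulp macrophage sums (1477 to 1736 CPM) and stromal sums (366 to 497 CPM) overlapped vehicle. With pppNS, where Dbp and Per3 also lay below vehicle, B cell sums (2129 to 2762 CPM) were below vehicle, and neutrophil (270 to 1145 CPM) and erythroid sums (7961 to 73584 CPM) above it, without overlap. Its T cell sums (453 to 508 CPM), red pulp macrophage sums (1265 to 2246 CPM) and stromal sums (340 to 491 CPM) overlapped vehicle. The part of cell composition in the clock gene values was not tested.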

How the data were processed

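RNA of 17 mouse spleen libraries was sequenced with a stranded mRNA kit, and the series deposited a single table of signal values. The submitters' processing notes list edgeR, HTSeq, SAMtools 1.4, TopHat, TopHat2 2.0.6 and FastQC without their order, and name the builds mm10 and GRCm38. Per the file headers, the authors' signal values are CPM on library sizes that edgeR had normalised. Annotation, strand setting and scaling of the library size are not given in the sources used here. All values were whole multiples of the value of 1 read within 0.01 reads (100% in each library), so the reads were recovered for edgeR and DESeq2. The table has 39184 lines. Left out were 699 marked as not determined, 113 that repeated a name, 27 whose names were dates and 5 with no name. Lines without a gene name held 28.1% to 46.1% of the reads.

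Genes that reached 1 CPM in 2 or more libraries were fitted as log2(CPM + 0.5) with limma 3.58.1 (R 4.3.3; moderated statistics with a mean-variance trend) on all libraries, with adjusted p-values after Benjamini and Hochberg over the genes of each comparison. Reads in the libraries were 26.5 M to 42.8 M. P-values set a difference against the spread between libraries pooled over groups, which takes that spread as equal in all groups. The value of 3 reads covers counting error only. Gene positions and exon lengths are from GENCODE vM21, and promoters from RefSeq. The 10 genes, the gene lists and the named genes (all 10, with a fixed panel of clock, glucocorticoid and interferon genes) were chosen with earlier results of these data known. Alternatives were other pseudocounts, filters and scalings, only the compared groups in the fit, a replicate block, edgeR 4.0.16, DESeq2 1.42.0, naive controls and libraries left out.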

Additional observations from a re-analysis of the deposited data

How the results depend on the processing

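Of 21 called differences of the 10 genes, 374 alternative values were computed, of which 317 kept the call, 57 lost it and 0 reversed. The falls of Dbp and Per3 after SLR10, SLR14 and poly(I:C), of Tef after SLR14 and poly(I:C) and of Nr1d1 after poly(I:C) against vehicle kept their calls in every alternative run; that of Tef after SLR10 was lost with naive as control. Differences that were not called gave 1216 values, of which 32 passed the threshold in the same direction, and 130 uncalled values of these and the other named genes changed sign. With naive as control, the direction reversed for Nr1d2 after SLR10 (0.63), Per2 after SLR14 (0.84), Ciart after poly(I:C) (0.73) and Npas2 after pppNS (-0.74).

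The number of the 10 genes called against vehicle went from 3 to 7 after SLR10 when only the compared groups were fitted (70.7% of all genes called there, 39.4% with all libraries), to 6 with naive as control (49.3%) and to 5 with naive and vehicle together (49.7%). After SLR14 it was 5 with naive as control (47.5%). After pppNS it went from 3 (4.3%) to 0, 0 and 1 under these 3 settings (0%, 10.9% and 11% of all genes). DESeq2 called 1 between vehicle and naive (0.707%). Between both SLRs and poly(I:C) the count of 1 (3.51%) became 0 without a filter (1.43%), 2 with only the compared groups (5.99%) and 0 without SLR14 replicate 2 and poly(I:C) replicates 2 and 3 (0.228%). Between both SLRs and pppNS the count of 2 (44.9%) became 1 without a filter (26.1%), 1 with only the compared groups (36.5%) and 4 with DESeq2 (49.8%). Between poly(I:C) and pppNS the count of 4 (26.8%) became 0 with only the compared groups (5.19%) and 1 without these 3 libraries (27.4%). The fit with only the compared groups takes the spread from those libraries alone, and the spread was unequal between groups. The variance between 2 replicates, over that of counting, was 6.87 to 9.47 for SLR10 pairs and 18.3 for vehicle. It was 76.8 to 354 for poly(I:C) pairs and 58.4 to 572 for pppNS pairs. The cause of the changes in these counts was not tested. With single libraries left out the counts were 3 to 3 (SLR10), 3 to 3 (SLR14), 4 to 6 (poly(I:C)) and 0 to 3 (pppNS) against vehicle, 0 to 0 for vehicle against naive and for SLR14 against SLR10, 0 to 1 for both SLRs against poly(I:C), 1 to 4 for both SLRs against pppNS and 2 to 5 for poly(I:C) against pppNS. Where 1 vehicle library was left, it was assumed to vary like the other groups.

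Libraries with equal replicate numbers were not clearly more alike than others. The median correlation of residuals was 0.03 for equal numbers (15 of 40 over 0.1) and -0.03 for different ones (27 of 80). With 2 or 3 libraries per group this cannot exclude a pairing. With the replicate block the counts, in the order of the comparisons above, were 3, 3, 5 and 2 against vehicle, 0 and 0, then 1, 3 and 4. The fall of Tef after pppNS lost its call there (-1.07, adjusted p = 0.0896). Depth did not limit the 10 genes, whose lowest level was 2.54 CPM where 3 reads were worth at most 0.129 CPM; Hlf and Npas2 lay near the added 0.5 CPM, and the vehicle group rests on 2 libraries.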
